A study of Mus musculus with 2 samples.

Results

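Venous-like endothelial cells of the mouse leptomeninges, the thin inner coverings of the brain, were taken from 2 droplet single-cell RNA libraries by their own transcripts. A barcode, the tag that marks the transcripts of 1 droplet, was kept with at least 400 detected genes and at most 10% of its UMIs (counted molecules) from mitochondrial genes. It was called endothelial when Cldn5, Flt1, Ly6c1, Pecam1 and Cdh5 together gave at least 3 UMIs. A member had a venous sum of at least 3 UMIs of Ackr1, Lrg1 and Vwf, and this sum exceeded both the transporter sum (Slco1a4, Slco1c1, Slc2a1 and Slc7a5) and the arterial sum (Eln, Bmx and Gja4). The rule found 66 members, 38 in library R1 and 28 in library R2, among 740 endothelial barcodes, 6026 kept barcodes and 14019 deposited barcodes. Members were 9.79% of the endothelial barcodes of R1 (38 of 388, exact 95% interval 7.02 to 13.2) and 7.95% of those of R2 (28 of 352, 5.35 to 11.3), a mean of 8.87% ± 1.30 (SD, n = 2 libraries). They were 1.27% and 0.922% of all kept barcodes.

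The tissue was peeled by hand from the cerebral hemispheres of Pdgfra-H2BGFP mice aged 3 months, both male and female, and digested to single cells. All mice carried this reporter, which puts a nuclear green fluorescent protein in cells that use the Pdgfra gene, and there was no untreated or other group to compare with. Both libraries belong to 1 group. The labels do not say whether R1 and R2 came from separate animals. The p-values below rest on counts summed per library and type of endothelial barcode. They measure how differences between these sums vary from R1 to R2, pooled over all types, and that spread may be technical.

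Veins and the venules just after the capillaries are the vessel segments where white blood cells leave the blood. Their endothelium carries adhesion molecules that hold such cells, and it stores von Willebrand factor for release on injury. Capillary endothelium of the brain is instead marked by transporters that move nutrients and lipids across the blood-brain barrier, and arterial endothelium by Notch ligands and elastic matrix. The comparisons below set the members against these neighbouring segments. Capillary-like barcodes were those whose transporter sum was at least 3 and above the other sums (209 in R1, 193 in R2), and arterial-like barcodes those whose arterial sum was (46 and 45). Another 95 and 86 endothelial barcodes met none of the 3 rules.

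The libraries held 93 barcode sequences in common, which touches every result below. Of these, 77 had total UMIs within 1.25 times of each other and a correlation of log counts across genes of at least 0.6. Of the members, 12 in R1 and 10 in R2 had a sequence that the other library also held, and 8 sequences were members in both. The 66 members thus had 58 distinct sequences. The 14 sequences that were members in at least 1 library had correlations across genes of 0.736 to 0.878 (median 0.802), with UMI totals in R2 that were at least equal to and at most 1.09 times those in R1. Pairs of unshared members of different libraries had a median of 0.364 and a highest value of 0.609 over 468 pairs. The genes in such a correlation are not independent, and it rises with depth. Shared members were deep, with median totals of 6226 UMIs in R1 and 6234 in R2, against 1455 and 1444 for the 26 and 18 unshared members. They carried 57.3% and 66.5% of all member UMIs, while shared barcodes carried 17.0% and 27.6% of capillary-like and 9.62% and 16.9% of arterial-like UMIs. With all barcodes the sums of R1 and R2 may therefore not be separate measurements, and the tested comparisons are given with and without the shared barcodes. Genes are called higher or lower only where they passed in both fits.

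**Figure D1:**
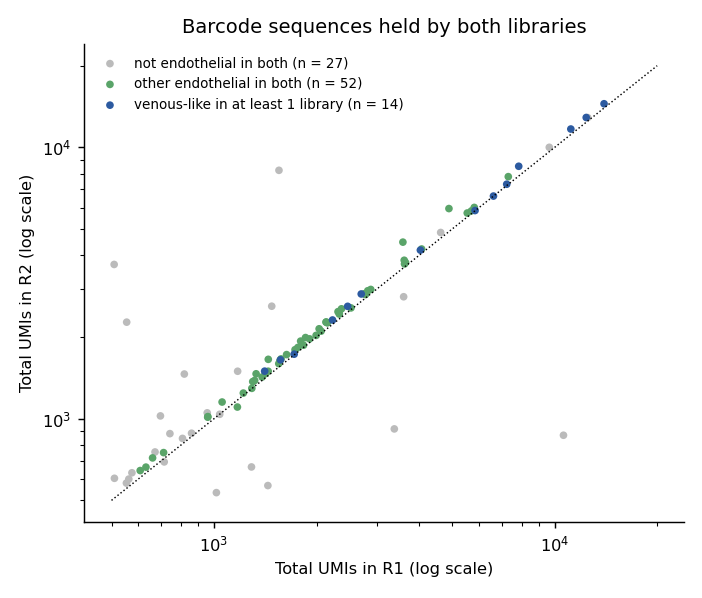
Total UMIs in library R1 (x axis, log scale) and R2 (y axis, log scale) of the 93 barcode sequences that both libraries hold, 1 point each, with the line of equality dotted. The 14 sequences that are venous-like in at least 1 library lie on or near the line, at R2 totals from equal to 1.09 times those of R1, and so do most of the others.

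The members' own marker values, which chose them, are a description. The venous sum ran from 3 to 97 UMIs in R1 (median 11) and from 3 to 82 in R2 (median 12.5). The transporter sum was not low: it ran from 1 to 35 (median 6) and from 0 to 40 (median 8), and 36 of 38 and 22 of 28 members had at least 3 transporter UMIs. The venous sum exceeded the next sum by only 1 UMI in 6 members of R1 and 5 of R2. Just outside the rule, 5 and 4 endothelial barcodes had a venous sum of at least 3 that was tied with another sum, and 60 and 69 had one that was below the transporter sum. A further 3 and 4 had a venous sum of 2 that was the highest.

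**Figure D2:**
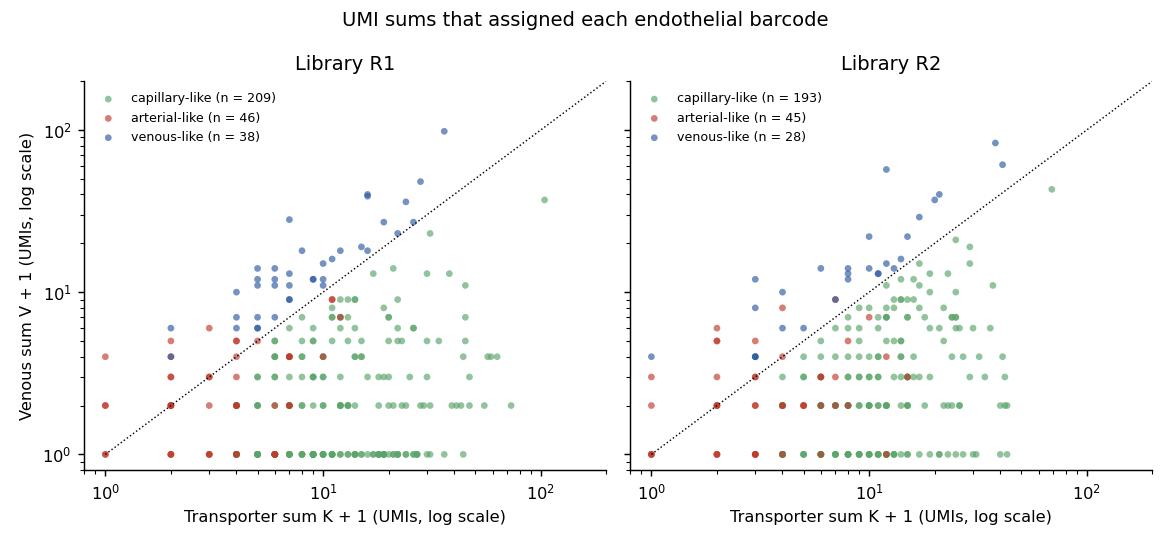
Venous sum plus 1 (y axis, UMIs, log scale) against transporter sum plus 1 (x axis, UMIs, log scale) of each barcode in R1 and R2, with 1 point per barcode, coloured by class, and equality dotted. The 38 and 28 venous-like barcodes lie above the line by construction, and 6 and 5 of them are 1 UMI above it.

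The label rested mainly on Vwf, which encodes von Willebrand factor (chr6:125546774-125686679, plus strand, build mm10). Vwf was found in 38 of 38 members of R1 and 27 of 28 of R2, at 2800 and 2543 CPM (counts of the summed members relative to all their UMIs, scaled to a fixed total). Lrg1, a secreted glycoprotein of venules (chr17:56119678-56122001, minus strand), was found in 24 of 38 and 22 of 28. Ackr1, the atypical chemokine receptor that typically marks venules and small veins (chr1:173331886-173333750, minus strand), was found in 18 of 38 and 11 of 28. Its annotation overlaps Cadm3 on the same strand, so reads of the pair may not be fully told apart. Without Vwf only 8 and 6 members would still meet the rule, against 32 and 23 without Ackr1. Capillary-like barcodes also held Vwf, with a UMI in 55.5% of them in R1 and 68.4% in R2, but Ackr1 in 3.83% and 5.18%. Arterial-like barcodes held Vwf too, with a UMI in 71.7% and 71.1% of them, at 772 and 845 CPM. Ackr1 was found in 1 of 46 and 0 of 45 of these.

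Shared and unshared members differed in these markers. Ackr1 was found in 11 of 12 shared members of R1 and 10 of 10 of R2, but in 7 of 26 and 1 of 18 unshared members. Lrg1 was at 1968 and 2107 CPM in shared members and at 549 and 880 CPM in unshared ones. Vwf went the other way, at 1215 and 1233 CPM against 4927 and 5140 CPM. The unshared members thus matched the rule through Vwf with little Ackr1, and their venous label is weaker by that gene. Venous genes outside the rule went both ways. Nr2f2 was at 158 and 143 CPM in shared members and 478 and 511 CPM in unshared ones. Ephb4 was at 39.6 and 71.7 CPM against 213 and 170 CPM. Icam1 was higher in shared members, at 1307 and 1175 CPM against 603 and 568 CPM.

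RNA of other cell types was present in members, and for several lists 1 barcode held most of it. Genes of red blood cells gave at least 3 UMIs in 63.2% and 57.1% of members, at 1400 and 914 CPM. They were at 10385 and 3436 CPM in capillary-like and 78696 and 2200 CPM in arterial-like barcodes. In R1, however, 1 arterial-like barcode held 8431 of 8661 such UMIs, and 1 capillary-like barcode held 1846 of 5980. At least 3 such UMIs were found in 66.0% and 63.2% of capillary-like and 93.5% and 75.6% of arterial-like barcodes. Genes of mural cells, the contractile cells around vessels, were at 787 and 524 CPM in members, with 9 of 10 genes detected in each library and Myh11 (R1) and Kcnj8 (R2) at 0. They were at 2461 and 1785 CPM in capillary-like and 3253 and 3111 CPM in arterial-like barcodes. Of the mural UMIs of members in R1, 84 of 104 came from 1 barcode. Among arterial-like barcodes, 1 held 245 of 358 in R1 and 1 held 211 of 287 in R2. At least 3 mural UMIs were found in 7.89% and 10.7% of members, 8.70% and 11.1% of arterial-like and 32.5% and 22.3% of capillary-like barcodes. No member had 3 UMIs of the platelet, neutrophil or T and NK cell lists. The 5 T and NK cell genes were at 0 in both libraries, as were Ppbp and Gp1ba of the platelet list and S100a8 and S100a9 of the neutrophil list. Of the 6 platelet genes, 3 were detected in members of each library, with 4 and 3 UMIs (30.3 and 28.6 CPM). The platelet list was at 24.3 and 14.3 CPM in capillary-like and 0 and 21.7 CPM in arterial-like barcodes. Of the 5 neutrophil genes, 1 was detected in members of R2, with 1 UMI. Prox1, which defines lymphatic endothelium, was at 0 in both libraries. Of the 5 lymphatic genes, however, 1 was detected in members of R1 (2 UMIs) and 2 in R2 (5 UMIs). In R2, 1 member held 4 of these UMIs. Border macrophage genes gave at least 3 UMIs in 2 members of R1 and 3 of R2, and astrocyte genes in 1 and 3. These counts were 2 and 1 for B and plasma cell genes, and 1 and 2 for neuron and for fibroblast genes. Microglia genes and arachnoid barrier and dural border genes had 1 and 0. Single barcodes held 44 of 60 astrocyte UMIs in R1 and 46 of 61 macrophage UMIs in R2. With red blood cell and lymphatic genes set aside, 33 and 20 members lacked such RNA. The part of other cells' RNA in the results below was not tested.

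Against capillary-like barcodes, venous-like barcodes carried more transcript of 2 adhesion molecules for white blood cells, Icam1 and Vcam1, and of Ptgs2, the inducible enzyme of prostaglandin synthesis. They carried less of 5 genes of the capillary list, namely the lipid transporter gene Mfsd2a, the chemokine gene Cxcl12, Rgcc, Spock2 and Car4. With all barcodes, 152 of 4444 genes passed (3.42%), 93 higher and 59 lower. Without the shared barcodes 16 of 4330 passed (0.37%), 7 higher (0.162%) and 9 lower (0.208%), and 513 had an unadjusted p below 0.05. Only 10 genes passed in both fits in the same direction, which is 0.251% of the 3985 genes that both could test. Besides the 8 named these were Kcnt1 and Slc7a11. Leaving out a venous-like sum from the first fit left 48 (R1) or 65 (R2) genes, and leaving out a capillary-like sum 67 (R1) or 73 (R2). The test was edgeR's quasi-likelihood test on counts summed by class and library, with Benjamini-Hochberg adjustment over all genes tested.

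Icam1 (chr9:21015985-21028817, plus strand) encodes an adhesion molecule that white blood cells grip on their way out of venules. It was at 1006 CPM in members of R1 and 972 CPM in members of R2, against 115 and 264 CPM in capillary-like barcodes. The log2 fold change was 2.59 (SE 0.30, adjusted p = 4.26e-06). Without the shared barcodes the members' levels were 603 and 568 CPM against 71.2 and 158 CPM, and the log2 fold change was 2.37 (SE 0.39, adjusted p = 0.00134). Icam1 was thus higher in both fits, although its level in members was lower without the shared barcodes. The unshared level rested on few barcodes, 8 of 26 in R1 (34 UMIs) and 4 of 18 in R2 (20 UMIs). Among shared members 11 of 12 and 8 of 10 held an Icam1 UMI.

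Vcam1 (chr3:116109949-116129688, minus strand), whose protein binds integrins on lymphocytes and monocytes, was at 1241 and 1457 CPM in members and at 330 and 625 CPM in capillary-like barcodes. The log2 fold change was 1.68 (SE 0.27, adjusted p = 0.000320), and without the shared barcodes 1.39 (SE 0.31, adjusted p = 0.0352). Leaving out the capillary-like sum of R1 from the first fit raised the adjusted p to 0.0772 at a log2 fold change of 1.33, the highest of a range over the alternatives that began at 9.37e-07. Arterial-like barcodes held Vcam1 at 1036 and 1019 CPM, and the venous-like minus arterial-like log2 fold change of 0.51 did not pass (SE 0.27, adjusted p = 0.188).

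Ptgs2 (chr1:150100031-150108227, plus strand) was at 454 and 505 CPM in members, at 29.5 and 59.4 CPM in capillary-like barcodes and at 0 in both arterial-like sums. Against capillary-like barcodes the log2 fold change was 3.61 (SE 0.30, adjusted p = 4.75e-08). Without the shared barcodes the members' levels were 372 and 426 CPM and the log2 fold change was 3.04 (SE 0.44, adjusted p = 0.000585). Of these 3 genes Ptgs2 had the largest fold change in each fit.

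The promoter stretches of Icam1 and Ptgs2 are shown because these genes had the largest log2 fold changes with all barcodes among the genes higher than in capillary-like barcodes in both fits. Each runs from 250 bases before to 50 after the RefSeq start (build GRCm38.p6), at chr9:21015690-21015989 and chr1:150099781-150100080, both on the plus strand. Capitals mark the motifs found in a search of both strands.
Icam1: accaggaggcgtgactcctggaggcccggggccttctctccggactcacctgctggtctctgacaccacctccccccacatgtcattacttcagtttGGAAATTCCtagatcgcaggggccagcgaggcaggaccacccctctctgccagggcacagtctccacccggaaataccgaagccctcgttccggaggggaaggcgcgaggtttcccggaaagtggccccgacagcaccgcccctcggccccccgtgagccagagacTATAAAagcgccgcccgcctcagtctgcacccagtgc
Ptgs2: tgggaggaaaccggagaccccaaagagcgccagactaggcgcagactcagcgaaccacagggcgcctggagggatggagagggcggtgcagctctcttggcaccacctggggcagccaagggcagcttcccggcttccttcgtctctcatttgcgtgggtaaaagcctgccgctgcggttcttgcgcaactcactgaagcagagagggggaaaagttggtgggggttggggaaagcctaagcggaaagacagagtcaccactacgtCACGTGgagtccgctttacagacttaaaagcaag
The Icam1 stretch held GGAAATTCC, the form of an NF-kB site, which 0.322% of 27025 RefSeq promoter stretches of this length hold. It also held TATAAA, which 14.2% hold. The Ptgs2 stretch held CACGTG, an E-box, which 7.24% hold. The motifs were chosen with these sequences in view, so a match is a description and no sign of a factor at work.

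Kcnt1, a sodium-activated potassium channel gene, and Slc7a11, the gene of a cystine and glutamate exchanger, passed in both fits but rested on few barcodes. All Kcnt1 UMIs of the members came from 1 unshared barcode in each library, with 7 UMIs in R1 and 8 in R2. Slc7a11 was at 378 and 305 CPM in members against 139 and 183 CPM in capillary-like barcodes, with a log2 fold change of 1.27 (SE 0.34, adjusted p = 0.0371). The summed unshared members held it at 851 and 852 CPM, but these UMIs came from 2 of 26 barcodes in R1 (48 UMIs) and 4 of 18 in R2 (30 UMIs). The log2 fold change without the shared barcodes was 2.03 (SE 0.35, adjusted p = 0.00283). Among barcodes with at most 5% mitochondrial UMIs the value turned to -1.92 for Slc7a11 and -4.44 for Kcnt1, and in members with an Ackr1 UMI to -2.31 and -4.81. Slc7a11 is also on the list of fibroblast genes, which together were at 749 and 619 CPM in members, 512 and 744 CPM in capillary-like and 1926 and 2190 CPM in arterial-like barcodes. Of the 8 fibroblast genes, 7 were detected in members of each library, with Lum at 0 in R1 and Col3a1 at 0 in R2. A single member held 77 of the 99 fibroblast UMIs in R1, and 1 held 42 of 65 in R2. Slc7a11 itself gave 50 of the 99 UMIs of this list in members of R1 and 32 of 65 in R2. The part of fibroblast RNA in the Slc7a11 value was not tested.

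Of the list of capillary and barrier transport genes, 7 of 20 were lower in members with all barcodes and 5 were lower in both fits, none being higher. Over all genes 1.33% were lower with all barcodes and 0.125% in both fits. The median log2 fold change of the list was -0.78, and -0.73 without the shared barcodes, against -0.03 over all genes in each fit. Capillary-like barcodes were themselves picked by transporter genes, and members by a venous sum above the transporter sum. This comparison therefore sets the members against cells chosen for capillary transcripts. Cxcl12, whose chemokine draws and holds cells that carry CXCR4, was at 341 and 400 CPM in members and at 2301 and 1537 CPM in capillary-like barcodes. Its log2 fold change was -2.23 (SE 0.28, adjusted p = 1.32e-05), and -2.73 without the shared barcodes (SE 0.41, adjusted p = 0.000585). Cxcl12 was lower in members under each alternative that gave a test.

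Spock2, a secreted proteoglycan gene, was at 666 and 553 CPM in members against 2289 and 1509 CPM. Its log2 fold change was -1.49 (SE 0.27, adjusted p = 0.00151), and -2.29 without the shared barcodes (SE 0.36, adjusted p = 0.000772). Car4, the gene of a carbonic anhydrase on the capillary surface, was at 257 CPM in members of each library against 604 and 585 CPM. The log2 fold change of Car4 was -1.08 (SE 0.28, adjusted p = 0.0313), and -3.48 without the shared barcodes (SE 0.52, adjusted p = 0.000585), where the members held only 3 and 2 UMIs of it. Leaving out the capillary-like sum of R1 from the first fit ended the call of Spock2 (adjusted p = 0.117), and leaving out any venous-like or capillary-like sum ended that of Car4 (adjusted p from 0.113 to 0.421). Car4 also missed the threshold by DESeq2 (adjusted p = 0.127), at 5% mitochondrial UMIs (0.112), with class sums of at least 2 (0.0508) and for members with an Ackr1 UMI (0.0628). Both genes were lower in members in both fits, and for Car4 the difference was larger without the shared barcodes.

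Mfsd2a (chr4:122946850-122961188, minus strand), the transporter of a brain omega-3 lipid, was at 30.3 and 28.6 CPM in members against 181 and 150 CPM in capillary-like barcodes. The log2 fold change was -2.35 (SE 0.44, adjusted p = 0.00229). The unshared members held 0 UMIs of Mfsd2a, at least 4.72-fold lower than the 121 UMIs of unshared capillary-like barcodes when set against a floor of 3 counts over both libraries. Rgcc, a cell cycle regulator gene that marks capillaries, was at 30.3 and 38.1 CPM in members against 191 and 164 CPM, with a log2 fold change of -2.26 (SE 0.44, adjusted p = 0.00324). It too was at 0 UMIs in unshared members, at least 4.18-fold lower. The adjusted p without the shared barcodes was 0.0189 for Mfsd2a and 0.0483 for Rgcc. In the fit with all barcodes, leaving out the venous-like or the capillary-like sum of R1 ended the calls of Mfsd2a (adjusted p = 0.140 and 0.174) and Rgcc (adjusted p = 0.152 and 0.202), and thinning the sums to 1 total did so too (0.104 and 0.0693). Setting these genes at their bound leaves the list's median as it is.

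Of the list of venous and post-capillary genes, 7 of 12 tested passed as higher with all barcodes, where 2.09% of all genes did. As lower 1 passed, where 1.33% of all genes did. In the fit without shared barcodes 2 of 11 passed as higher, where 0.162% of all genes did. Only Icam1 and Vcam1 passed in both fits, where 0.125% of all genes were higher. The list's median log2 fold change was 1.25, and 1.13 without the shared barcodes. Members were themselves picked by Ackr1, Lrg1 and Vwf, so these values describe cells chosen for venous transcripts. Slc38a5, an amino acid transporter gene, was at 1256 and 1134 CPM in members against 417 and 649 CPM in capillary-like barcodes. Its log2 fold change was 1.33 (SE 0.28, adjusted p = 0.00613), and 1.26 without the shared barcodes, which missed the threshold (SE 0.32, adjusted p = 0.0673). Tmem252 and Il1r1, the receptor for interleukin 1, passed with all barcodes only. Their log2 fold changes were 1.38 and 1.08, and 1.13 and 0.78 without the shared barcodes, with adjusted p of 0.255 and 0.431.

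Nr2f2, the transcription factor COUP-TFII that specifies veins, was at 295 and 267 CPM in members against 144 and 200 CPM in capillary-like barcodes. Its log2 fold change of 0.86 did not pass (SE 0.29, adjusted p = 0.106), nor did the 1.34 without the shared barcodes (SE 0.35, adjusted p = 0.0813). Ephb4, the venous ephrin receptor, had log2 fold changes of 0.13 and 0.53, with adjusted p of 0.892 and 0.652. Csrp2 had values of 0.79 and -0.89, with adjusted p of 0.190 and 0.572. Hmcn1, a matrix gene of the list, passed as lower with all barcodes at -1.81 (SE 0.35, adjusted p = 0.00303), and had -2.16 without the shared barcodes (SE 0.51, adjusted p = 0.0536). Ch25h, which makes 25-hydroxycholesterol, had 1.89 with all barcodes (SE 0.60, adjusted p = 0.0851) and was too low to test without the shared ones. Selp and Sele, the selectins of activated venules, were too low to test, and Selp had 3 UMIs in all members together.

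Lcn2, which encodes the iron-carrier protein lipocalin 2, differed mostly through the shared members. It was at 4094 and 4249 CPM in members against 111 and 380 CPM in capillary-like barcodes, with a log2 fold change of 4.39 (SE 0.36, adjusted p = 4.75e-08). Within the members it was at 7026 and 6350 CPM in shared barcodes and at 159 and 85.2 CPM in unshared ones, from 9 and 3 UMIs. In the fit without shared barcodes the log2 fold change was 2.31 and did not pass (SE 0.90, adjusted p = 0.284).

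**Figure D3:**
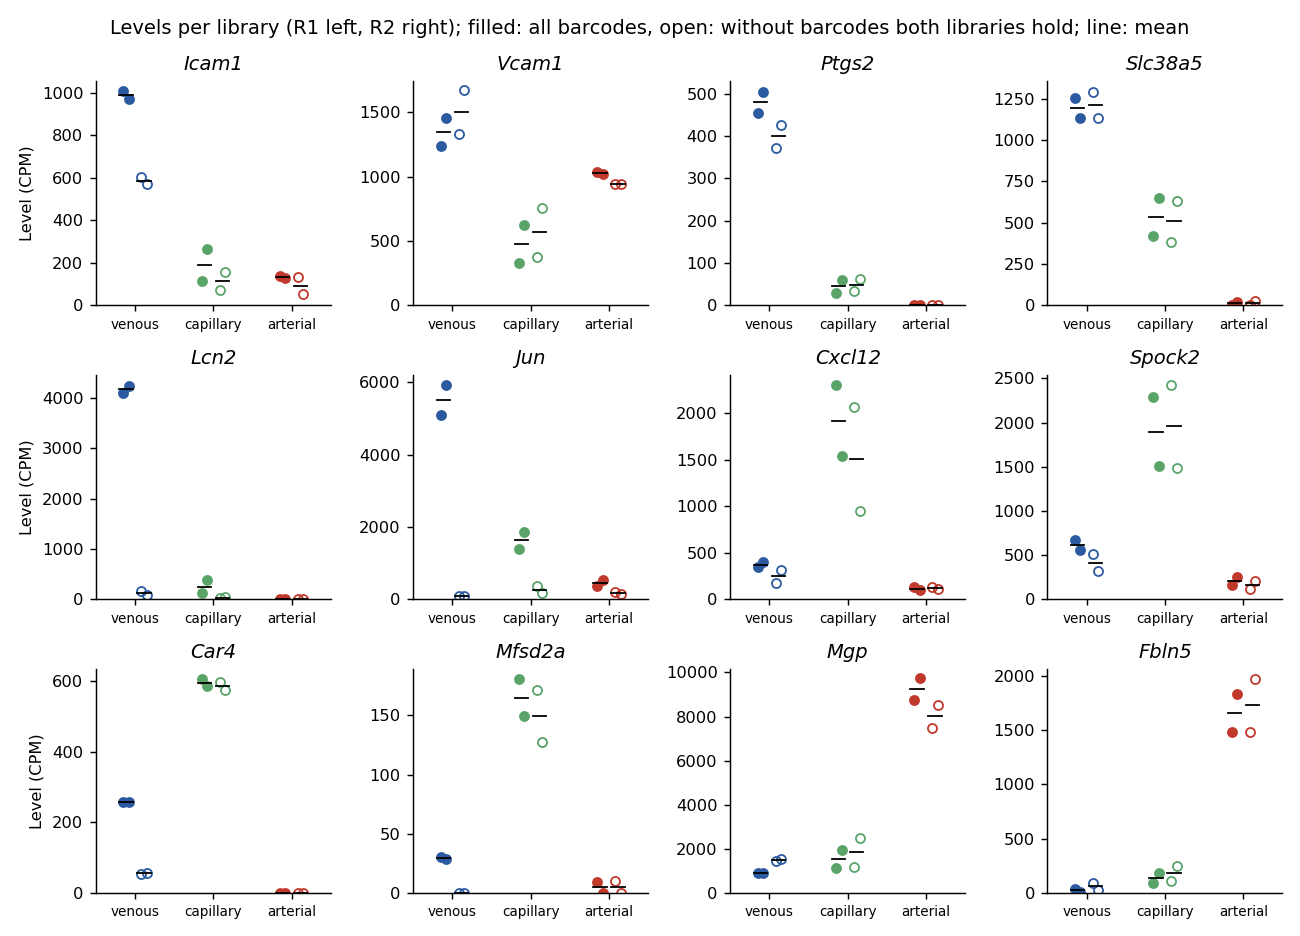
Level in CPM (y axes, each from 0) of 12 genes in the summed venous-like, capillary-like and arterial-like barcodes, with R1 left and R2 right, filled points for all barcodes, open points without shared barcodes and lines at the mean. Icam1, Vcam1 and Ptgs2 are higher and Cxcl12, Spock2, Car4 and Mfsd2a lower in venous-like than in capillary-like sums in both sets, while Lcn2 and Jun fall from 4094 and 4249 and from 5085 and 5916 CPM to under 160 CPM in members without the shared barcodes.

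The immediate-early genes, which are switched on within minutes of a stimulus, depended as a list on the shared barcodes. With all barcodes 13 of 18 passed as higher in members than in capillary-like barcodes, where 2.09% of all genes did, and the median log2 fold change was 1.70. After their removal 0 of 16 passed by edgeR, where 0.162% of all genes did, 6 of 16 had a value above 0, and the median was -0.46. Jun, a subunit of the AP-1 transcription factor, was at 5085 and 5916 CPM in all members and at 88.6 and 85.2 CPM in unshared ones. Its log2 fold change was 1.89 with all barcodes (adjusted p = 8.83e-05) and -1.73 without the shared ones (adjusted p = 0.160). Egr1 went from 2.15 (adjusted p = 1.14e-05) to 0.48 (adjusted p = 0.830).

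The summed level of the list separated shared from unshared barcodes in every class. It was 44797 and 44838 CPM in shared members and 1311 and 2527 CPM in unshared members. In capillary-like barcodes it was 32678 and 32874 CPM when shared and 3114 and 1615 CPM when not. In arterial-like barcodes it was 23607 and 29707 CPM, from 2 and 3 shared barcodes, and 1981 and 1775 CPM. Median mitochondrial shares were lower in shared members, at 3.39% and 2.77%, than in unshared ones, at 6.41% and 5.90%. Since members had a larger part of their UMIs in shared barcodes than the other classes, the comparison with all barcodes also set shared against unshared barcodes.

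The values of some other genes, chosen after they were seen, also turned or were lost without the shared barcodes. Cxcl1 and Cxcl2, chemokines that draw neutrophils, had log2 fold changes of 2.90 and 4.87 with all barcodes (adjusted p = 2.74e-05 and 1.08e-07) and 0 UMIs in the unshared members. Nfkbia, an inhibitor of NF-kB that NF-kB itself induces, went from 1.97 (adjusted p = 1.14e-05) to -0.42 (adjusted p = 0.643). Klf2, a flow-induced transcription factor, went from 1.59 (adjusted p = 0.000376) to -1.42 (adjusted p = 0.0596). Ifitm2, an interferon-induced membrane protein gene, went from 1.78 (adjusted p = 3.80e-05) to -0.60 (adjusted p = 0.571). Hspb1, a small heat shock protein gene, passed in opposite directions, at 1.02 with all barcodes (adjusted p = 0.0292) and -2.57 without the shared ones (adjusted p = 0.0189). No direction against capillary-like barcodes is given for these genes.

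**Figure D4:**
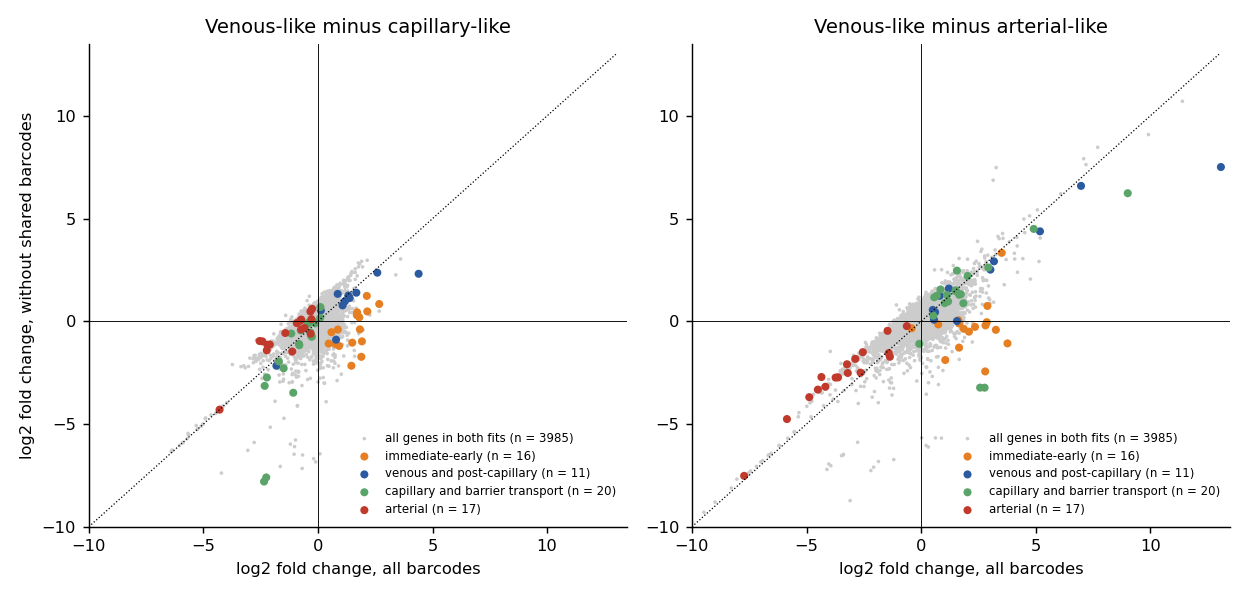
Log2 fold change without shared barcodes (y axis) against that with all barcodes (x axis) for 3985 genes that both fits tested, venous-like minus capillary-like (left) and minus arterial-like (right), 1 point per gene, with 4 lists coloured and equality dotted. Immediate-early genes lie mostly below the dotted line, with medians of 1.70 with all barcodes and -0.46 without the shared ones against capillary-like barcodes, while arterial genes lie below 0 on both axes against arterial-like barcodes.

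Against arterial-like barcodes the members differed in more genes and more of these held without the shared barcodes. With all barcodes 921 of 4444 genes passed (20.7%), 532 higher and 389 lower, and without the shared ones 139 of 4330 (3.21%), 75 higher (1.73%) and 64 lower (1.48%). In both fits 134 of 3985 passed in the same direction (3.36%), 70 higher (1.76%) and 64 lower (1.61%). Leaving out the venous-like sum of R2 left 412 genes and leaving out the arterial-like sum of R1 left 460. The members are the same as in the comparison with capillary-like barcodes, so the 2 comparisons are not independent.

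Of the venous and post-capillary list, 8 of 12 tested passed as higher, where 12% of all genes did. In both fits 6 passed as higher, where 1.76% of all genes did, namely Slc38a5, Tmem252, Icam1, Il1r1, Nr2f2 and Lcn2. The list's median log2 fold change was 2.29, and 1.59 without the shared barcodes, against -0.06 and 0.01 over all genes. Slc38a5 was at 1256 and 1134 CPM in members and at 0 and 21.7 CPM in arterial-like barcodes, where only 2 UMIs were counted. The ratio of pooled levels was 122 (counting interval 33.3 to 1009), and 109 (29.4 to 907) without the shared barcodes. Tmem252 was at 583 and 438 CPM against 0 and 32.5 CPM, a pooled ratio of 35.0 (11.7 to 172), and 24.3 (7.72 to 123) without the shared barcodes. Icam1 had a log2 fold change of 3.03 (SE 0.36, adjusted p = 2.12e-06) and 2.52 without the shared barcodes (adjusted p = 0.00137).

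Il1r1 was at 272 and 305 CPM in members against 36.4 and 32.5 CPM, with a log2 fold change of 3.18 (SE 0.50, adjusted p = 7.61e-05), and 2.92 without the shared barcodes (adjusted p = 0.00241). Nr2f2 had log2 fold changes of 1.21 (SE 0.36, adjusted p = 0.0203) and 1.59 (SE 0.41, adjusted p = 0.0281). Nr2f2 therefore passed against arterial-like but not against capillary-like barcodes, and the difference between those contrasts was not tested. Lcn2 had 0 UMIs in arterial-like barcodes and was at least 281-fold higher in members, and at least 7.69-fold without the shared barcodes. In the fit without shared barcodes it passed only narrowly by edgeR (adjusted p = 0.0496). There it rested on 9 UMIs in 5 of 26 members of R1 and 3 UMIs in 2 of 18 of R2. Ptgs2, outside this list, was at least 32.1-fold higher, and 23.1-fold without the shared barcodes. Il6ra, the receptor for interleukin 6, had a pooled ratio of 11.4 (3.62 to 57.5), with 3 UMIs in arterial-like barcodes, and 10.9 (3.15 to 58.0) without the shared barcodes.

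Of the capillary and barrier transport list, 11 of 20 were higher in members than in arterial-like barcodes with all barcodes, where 12% of all genes were, and 3 in both fits, where 1.76% were, none being lower. The median was 1.54, and 1.29 without the shared barcodes. Slc22a8, an organic anion transporter gene, was at 303 and 276 CPM against 72.7 and 86.7 CPM and had log2 fold changes of 2.03 (adjusted p = 0.0145) and 2.21 (adjusted p = 0.0495). Slc40a1, the iron exporter ferroportin, had 37 UMIs in members and 1 in arterial-like barcodes, a pooled ratio of 31.6 (5.32 to 1280), and 28.8 (4.43 to 1213) without the shared barcodes. Car4 had 61 UMIs in members and 0 in arterial-like barcodes, which passed with all barcodes (adjusted p = 1.60e-06) but not without the shared ones (5 UMIs against 0, adjusted p = 0.0789).

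Ctla2a, which encodes a cathepsin inhibitor, was at 1317 and 1372 CPM in members and at 0 in both arterial-like sums, at least 90.4-fold higher, and at least 72.4-fold without the shared barcodes. Its annotation overlaps other genes on the same strand, so its counts are uncertain. Capillary-like barcodes held Ctla2a at 804 and 1231 CPM. Emcn, the endothelial sialomucin that typically marks capillaries and veins, was at 295 and 353 CPM in members against 18.2 and 10.8 CPM, a pooled ratio of 21.6 (7.12 to 107), and 21.8 (6.85 to 111) without the shared barcodes.

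The VEGF, angiopoietin and BMP receptor list went both ways. Of 21 tested genes 5 passed as higher and 5 as lower with all barcodes, where 12% and 8.75% of all genes did, and the median log2 fold change was 0.07. In both fits 5 passed as higher and 0 as lower, where 1.76% and 1.61% did. Kdr, the main VEGF receptor, was at 409 and 333 CPM in members and at 0 and 32.5 CPM in arterial-like barcodes, a pooled ratio of 25.3 (8.39 to 125), and 39.1 (12.8 to 195) without the shared barcodes. Nrp2, a co-receptor of veins and lymphatics, had log2 fold changes of 2.78 (SE 0.46, adjusted p = 0.000125) and 3.08 (SE 0.49, adjusted p = 0.000236). Calcrl, the receptor for adrenomedullin and CGRP, had 2.01 (adjusted p = 0.00302) and 2.46 (adjusted p = 0.00346). Kdr and Nrp2 were also present in capillary-like barcodes, at 526 and 528 CPM and at 169 and 242 CPM.

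Arterial genes were lower in members: 16 of 17 tested passed as lower with all barcodes, where 8.75% of all genes did, and 12 passed in both fits, where 1.61% did. The list's median log2 fold change was -3.23, and -2.51 without the shared barcodes. Fbln5, an elastic fibre gene, was at 37.8 and 9.53 CPM in members against 1481 and 1832 CPM, with a log2 fold change of -5.85 (SE 0.45, adjusted p = 3.64e-09) and -4.76 without the shared barcodes (SE 0.50, adjusted p = 7.16e-07). Mgp, an inhibitor of calcification, was at 908 and 914 CPM against 8732 and 9734 CPM, with log2 fold changes of -3.20 (SE 0.28, adjusted p = 2.25e-08) and -2.51 (SE 0.33, adjusted p = 1.95e-05). Arterial-like barcodes were themselves picked by Eln, Bmx and Gja4, so this sets the members against cells chosen for arterial transcripts.

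Clu, which encodes the chaperone clusterin, was at 189 and 190 CPM in members against 1826 and 2114 CPM, with log2 fold changes of -3.23 (adjusted p = 3.01e-08) and -2.09 (adjusted p = 0.000279). Gkn3, a marker of brain arteries, had -4.35 (adjusted p = 1.77e-07) and -2.71 (adjusted p = 0.00137), and the cytokine-like gene Cytl1 had -4.88 (adjusted p = 4.75e-06) and -3.69 (adjusted p = 0.000679). Edn1, the vessel-constricting peptide endothelin 1, was at 136 and 76.2 CPM against 618 and 889 CPM, with -2.64 (adjusted p = 3.01e-05) and -2.50 (adjusted p = 0.00186). These genes were lower in members of both libraries with and without the shared barcodes. Against capillary-like barcodes 5 of 17 arterial genes passed as lower with all barcodes, where 1.33% of all genes did. Without the shared ones 0 of 17 passed as lower by edgeR, where only 0.208% of all genes did.

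Of 8 tested Notch genes, 3 were lower and 1 higher in members in both fits, where 1.61% and 1.76% of all genes were. The ligand gene Jag1 was at 75.7 and 19.1 CPM against 463 and 336 CPM, with log2 fold changes of -2.87 (adjusted p = 5.05e-05) and -1.83 (adjusted p = 0.0323). Dll4, the arterial Notch ligand, held 3 UMIs in members, and arterial-like barcodes had 13.7 times the pooled level (4.31 to 69.5), and 6.07 times (1.91 to 30.9) without the shared barcodes. The receptor gene Notch4 had -2.84 (adjusted p = 0.000270) and -3.37 (adjusted p = 0.00687). Lfng, which adds a sugar to Notch receptors and changes which ligands they answer, went the other way, with 166 and 152 CPM in members against 9.09 and 21.7 CPM, a pooled ratio of 10.8 (3.43 to 54.7), and 20.5 (6.41 to 105) without the shared barcodes.

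Matrix genes were mostly lower where they passed: of 19 tested basement membrane and matrix genes, Bgn, Timp3 and Mgp were lower and Vwa1 higher in both fits, against the same shares of all genes. Bgn, the proteoglycan biglycan, was at 60.5 and 76.2 CPM against 854 and 900 CPM, with log2 fold changes of -3.55 (adjusted p = 2.76e-07) and -2.73 (adjusted p = 0.000233). Timp3, an inhibitor of matrix-degrading enzymes, had -1.99 (adjusted p = 8.64e-05) and -1.27 (adjusted p = 0.0348). Vwa1 had 2.15 (adjusted p = 0.000103) and 1.76 (adjusted p = 0.0171). Mmrn2, an endothelial matrix glycoprotein of the clotting and vessel tone list, had -1.49 (adjusted p = 0.00131) and -1.48 (adjusted p = 0.0333). Summed levels of mural and fibroblast genes, which include matrix genes, were higher in arterial-like barcodes, as given above. The mural sums of arterial-like barcodes came mostly from 1 barcode in each library. The part of both lists was not tested.

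Outside the lists, Igfbp3, Atp2a3 and Syt15 had 0 UMIs in all members. They were at 282 and 531, 318 and 228, and 164 and 173 CPM in arterial-like barcodes, at least 31.3-fold, 21.9-fold and 13.3-fold lower in members. For unshared members these bounds were 13.7, 9.37 and 5.72. Igfbp3 is also on the list of arachnoid barrier and dural border genes. The summed level of this list was 75.7 and 19.1 CPM in members and 709 and 694 CPM in arterial-like barcodes. Igfbp3 itself gave 31 of the 78 UMIs of this list in arterial-like barcodes of R1 and 49 of 64 in R2. Tshz2, a zinc finger transcription factor gene, and Jam2, a junctional adhesion molecule gene, were higher in members in both fits, at log2 fold changes of 2.35 and 1.57 with all barcodes (adjusted p = 0.000327 and 0.00457), and 1.97 and 1.70 without the shared ones (adjusted p = 0.0352 and 0.0418).

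The immediate-early list again depended on the shared barcodes: 14 of 18 passed as higher than in arterial-like barcodes with all barcodes, where 12% of all genes did, and 1 of 16 without the shared ones, where 1.73% did. The gene that passed in both was Ier3, an early response gene, with log2 fold changes of 3.52 (adjusted p = 1.12e-08) and 3.33 (adjusted p = 0.000919). Jun went from 3.77 (adjusted p = 8.93e-09) to -1.07 (adjusted p = 0.478), and Klf2 from 1.90 (adjusted p = 1.68e-05) to -0.79 (adjusted p = 0.336). Ier3 was at 248 and 398 CPM in unshared members against 20.1 and 39.1 CPM in unshared arterial-like barcodes.

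Shares of barcodes with a UMI were also compared after each barcode was thinned to 1000 UMIs, which left 34 and 26 members, 22 and 16 of them unshared. Slc38a5 was found in 25 of 34 members of R1 (73.5%, exact 95% interval 55.6 to 87.1) and 17 of 26 of R2 (65.4%, 44.3 to 82.8), against 23.4% and 40.5% of capillary-like barcodes. Unthinned, it was in 81.6% and 82.1% of members. Among unshared barcodes its thinned share was 72.7% (49.8 to 89.3) and 43.8% (19.8 to 70.1) in members against 28.1% and 39.5% in capillary-like barcodes, so that in R2 the latter lay within the members' interval. Ptgs2 was found in 35.3% and 26.9% of members (47.4% and 46.4% unthinned), against 2.72% and 5.52% of capillary-like barcodes. Its shares among unshared barcodes were 36.4% and 37.5% against 2.05% and 10.1%. Car4 was found in 14.7% and 11.5% of members (34.2% and 28.6% unthinned), against 38.0% and 32.5%. Among unshared members it was in 1 of 22 and 0 of 16.

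Border macrophage-like barcodes, which should lack Slc38a5 and Car4, gave a background for these shares. Slc38a5 was in 1 of 692 of them in R1 (0.145%) and 0 of 615 in R2 (up to 0.598% by the exact interval), and Car4 in 0 of 692 (up to 0.532%) and 2 of 615 (0.325%). Their median depth before thinning was 1722 UMIs in R1 and 1344 in R2, against 1754 and 1682 for members. The shares of Slc38a5 in members lay above this background with and without the shared barcodes. For Car4 the intervals of the unshared members, 0.115% to 22.8% and 0% to 20.6%, overlapped those of the background. The intervals cover counting error only.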

How the data were processed

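The matrices deposited by the authors hold unnormalized UMI counts, per the file headers, from Cell Ranger 4.0.0. The build mm10 is named in the submitters' processing notes. The deposited feature and barcode lists (unit: other, per the file headers) give a symbol beside an Ensembl identifier and the barcode sequences. Whether counting used strand is not given in the sources used here. The labels name a recovery target of at most 5000 cells per sample. The libraries held 14586462 (R1) and 12359040 (R2) UMIs over 32287 features, and the kept barcodes 7638905 and 6276801. No doublet caller was applied.

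The members, classes and lists were chosen with earlier results of these data known, and the shared barcodes were left out as an alternative chosen after seeing the data. Counts were summed per library over 4 endothelial classes and tested with edgeR 4.0.16 (R 4.3.3, limma 3.58.1), using TMM scaling, filterByExpr and library as a block. The block pairs classes of the same library, as the design itself gives. The fits left 3 residual degrees of freedom, with a common biological coefficient of variation of 0.164, and 0.185 without the shared barcodes. The 15 genes of the rule stayed out of the test. The threshold was 0.05 on the Benjamini-Hochberg adjusted p. The SE was taken as the absolute log2 fold change divided by the root of its F statistic. CPM values are computed on summed counts. With 0 counts on 1 side the fold is a bound against 3 counts pooled over both libraries, and with 1 to 3 counts a ratio with its exact 95% counting interval. Such intervals and floors speak of counting error alone, and 3 counts in members are 22.7 CPM in R1 and 28.6 CPM in R2.

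Named genes were, per list, up to 3 passing genes in each direction with the same sign in both libraries and at least 50 CPM on the higher side, 8 more in each direction outside the lists, and all venous and post-capillary genes. Some genes are not reported here. The rule names 54 and 79 genes, of which those that passed in both fits or split between them are described. Slc7a11, Hspb1, Spock2, Car4, Nfkbia and Jun (capillary-like), Il6ra, Slc22a8, Gkn3, Clu, Mmrn2, Timp3 and Klf2 (arterial-like), Sele and the genes of the shares were chosen after their values were seen. The script was tested on simulated data. Gene positions come from the mm10 annotation. DESeq2 1.42.0, Python 3.11.15, numpy 2.4.6, scipy 1.17.1, pandas 2.3.3 and matplotlib 3.10.9 were also used.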

Additional observations from a re-analysis of the deposited data

How the results depend on the processing

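Counts of genes depended on the settings, most of all on the shared barcodes, and the cause was not tested. Against capillary-like barcodes 152 genes passed by edgeR, 61 with DESeq2's Wald test, 80 with class sums thinned to 1 total, 329 with only the named classes in the fit, 356 without barcodes holding other cell types (red blood cell and lymphatic genes set aside), 894 for members with an Ackr1 UMI (21 of 29 of them shared barcodes) and 16 without the shared barcodes. Leaving out 1 class sum gave 48 (without the venous-like sum of R1) to 209 (without the arterial-like sum of R2). Without either venous-like or capillary-like sum the count was 48 to 73, where the lone sum is assumed to vary like the others. Against arterial-like barcodes 921 passed, 388 with DESeq2, 557 with class sums of at least 5, 1654 for members with an Ackr1 UMI, 508 without other cell types and 139 without the shared barcodes. Leaving out 1 class sum gave 412 (without the venous-like sum of R2) to 911, and 460 without the arterial-like sum of R1. Without the replicate block 113 and 921 passed, and 4 of the described genes that passed against capillary-like barcodes then did not, but 0 of those against arterial-like ones. With no filter on low counts the split against capillary-like barcodes was 61 higher to 124 lower, and at a limit of 5% mitochondrial UMIs 78 to 137, against 93 to 59. The number of members was 66, 32 at 5% mitochondrial UMIs, 21 without other cell types and 28 to 38 in single libraries, and their share of endothelial barcodes 8.87%, 7.52% at 5%, 13.6% without other cell types, 7.21% without the shared barcodes and 7.95% to 9.79% in single libraries. Without the shared barcodes the log2 fold change against capillary-like barcodes turned to -2.57 for Hspb1, -0.42 for Nfkbia, -0.60 for Ifitm2, -1.42 for Klf2 and -1.73 for Jun, and against arterial-like barcodes to -1.07 for Jun and -0.79 for Klf2. Against capillary-like barcodes Kcnt1 turned to -4.44 at 5% mitochondrial UMIs and -4.81 for members with Ackr1, and Slc7a11 to -1.92 and -2.31. Icam1 and Cxcl12 passed against capillary-like barcodes in each alternative that gave a test. Single libraries gave values with no test, and the fit without any barcodes holding other cell types was not run because R2 then had under 10 members. Depth limits low genes: 3 counts over the members of 1 library are 22.7 CPM in R1 and 28.6 CPM in R2.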
